A study of Mus musculus with 15 samples.

Results

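The vasopressin and oxytocin receptors are 4 genes, Avpr1a, Avpr1b, Avpr2 and Oxtr, taken by symbol from the 38283 genes of the expression table. Their levels were compared between purified mouse pancreatic alpha, beta and delta cells. Vasopressin and oxytocin are closely related peptide hormones that are made in the hypothalamus and released from the posterior pituitary. The receptors encoded by Avpr1a (V1a), Avpr1b (V1b) and Oxtr couple mainly to Gq/11, which activates phospholipase C beta, releases calcium from stores through IP3 receptors and activates protein kinase C. The product of Avpr2 (V2) couples to Gs and cyclic AMP, and is best known for directing aquaporin-2 to the membrane of kidney collecting duct cells. In islets, both peptides are known to affect the release of glucagon and insulin.

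All mice were C57BL/6. The 5 alpha and 4 beta cell samples were sorted from Glu-Venus mice, in which the proglucagon promoter drives the Venus fluorophore. Beta cells carried no marker of their own and were taken as the Venus-negative cells of high scatter and autofluorescence. The 6 delta cell samples were from Sst-CreXROSA26EYFP/EYFP mice, where Cre under the Sst promoter switches on EYFP, so that for delta cells the mouse line and the cell type cannot be told apart. No age is given in the labels, islets of several mice were pooled for each sample, and p-values measure the spread between such pools. Libraries of amplified RNA were read from a single end for 50 nt. Values are FPKM, which is meant to correct for transcript length and sequencing depth, so that levels of different genes can be set side by side. FPKM totals over all genes still ranged from 2.82e+06 (delta sample 6) to 2.63e+07 (alpha sample 2). No further scaling between libraries was made in the main fit.

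The hormone genes followed the sample labels. Gcg was at 184426 to 344947 FPKM in alpha cells and at most at 1817 FPKM elsewhere, Ins2 was at 91248 FPKM or more in beta cells and at most at 9094 elsewhere, and Sst was at 101492 FPKM or more in delta cells and at most at 2427 elsewhere. Of the 5 delta cell markers listed, Cckbr was at 0 in all delta cell samples. The steps of single reads in low values implied depths of 7.54 M (alpha sample 2) to 30.4 M reads (delta sample 3) in the 5 libraries where they could be resolved, also delta samples 1, 2 and 4, and 10 libraries have no known depth. These depths are estimates, with 36.55% (delta sample 1) to 61.52% (delta sample 4) of low values near a whole number of reads. The sum over 81 ribosomal protein genes was 62768 to 134233 FPKM in 6 samples (delta 1 and 2, beta 2, alpha 1, 2 and 3) and 7584 to 36870 FPKM in the remaining 9, and receptor values are also given within each set. The same 6 samples had the higher FPKM totals over all genes, 1.25e+07 to 2.63e+07 against 2.82e+06 to 4.67e+06. The sets thus differ in total FPKM and not in ribosomal protein genes alone. Summed FPKM of acinar cell markers ranged from 20.2 to 536 in delta, 0.122 to 76.4 in alpha and 0.0283 to 13.7 in beta cells, with 2 of the 10 markers at 0 in each cell type, and their part in the receptor values was not tested.

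The receptor genes are related in sequence but can be told apart by reads of this length. Between the coding sequences of the members (GRCm38, GENCODE M21 transcripts), identity ranged from 52.8% for Avpr1a and Avpr2 to 60.2% for Avpr1b and Oxtr. No run of 50 nt was shared between the main transcripts of any members, and the longest shared run was 23 nt, between Avpr1a and Oxtr. The most similar stretch of 60 coding bases, in which 39 are identical in all 4 genes, is shown to make the family likeness visible. Bases identical in all members are in capitals. The stretches lie at chr10:122449093-122449152 (plus strand, exon 1) for Avpr1a, chr1:131599978-131600037 (plus strand, exon 1) for Avpr1b, chr6:112489486-112489545 (minus strand, exon 1) for Oxtr and chrX:73892851-73892910 (plus strand, exon 2) for Avpr2.
Avpr1a: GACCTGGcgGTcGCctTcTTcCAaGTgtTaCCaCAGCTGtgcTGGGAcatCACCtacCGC
Avpr1b: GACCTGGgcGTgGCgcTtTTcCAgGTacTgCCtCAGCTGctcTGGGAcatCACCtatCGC
Oxtr: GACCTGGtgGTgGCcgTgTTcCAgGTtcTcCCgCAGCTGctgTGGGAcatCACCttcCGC
Avpr2: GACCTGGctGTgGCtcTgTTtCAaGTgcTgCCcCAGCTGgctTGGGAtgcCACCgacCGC

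Each of the expressed receptors had its own distribution over the cell types. Avpr1a was found in delta cells, Avpr1b in alpha cells, and Oxtr in alpha and delta cells, while Avpr2 was listed at 0 throughout. In beta cells, the summed FPKM of the 4 genes was 0.553 ± 0.184 (SD, n = 4), which compares with an alpha cell sum of 28.4 ± 14.0 (SD, n = 5) and a delta cell sum of 22.7 ± 5.93 (SD, n = 6). In bulk samples, a lower value can come from fewer expressing cells or from less RNA per cell, and these cannot be told apart. Differences between cell types were tested with limma on log2(FPKM + 1) over the 14405 genes with a mean above 1 FPKM in at least 1 cell type, with Benjamini-Hochberg adjustment over all of them. Of the 4 members, 3 passed this filter, each through the cell types in which it was high, so the counts of calls below are given as a description. A call is an adjusted p under 0.05. Fold changes on this scale understate those of low genes.

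**Figure D1:**
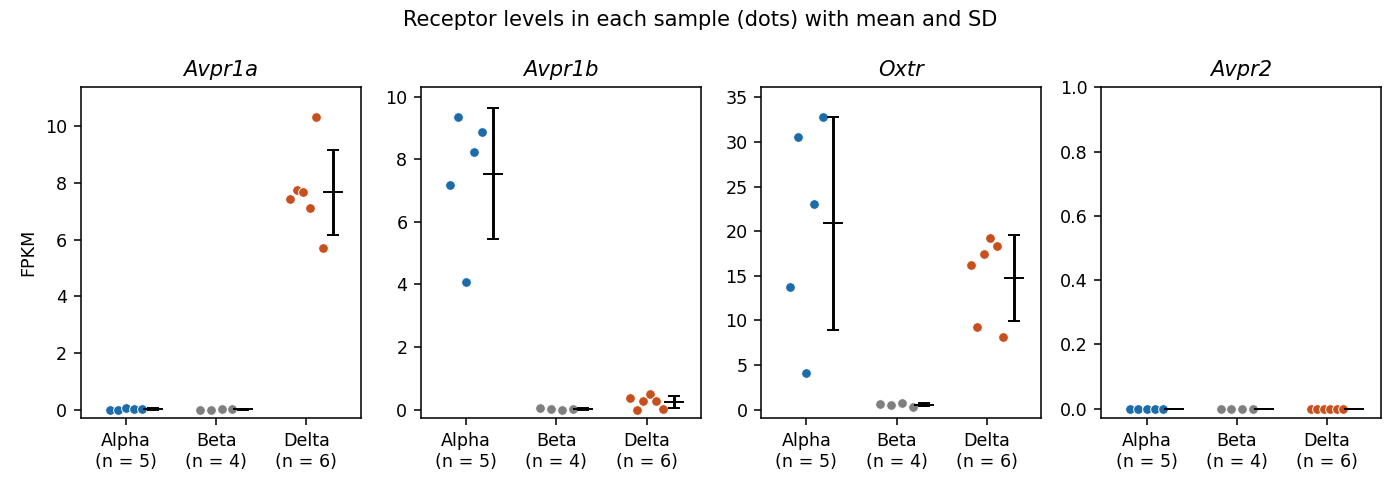
FPKM of each receptor gene (vertical axes, separate scale for each gene) in the 5 alpha, 4 beta and 6 delta cell samples (dots), with the mean and SD beside them. Avpr1a stands above 5.7 FPKM in delta cells only, Avpr1b above 4.0 in alpha cells only, Oxtr in alpha and delta cells, and Avpr2 is at 0 in all samples.

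In beta compared with alpha cells, 2 members were lower (Avpr1b and Oxtr) and 0 higher, where 4.82% of all genes tested were called lower and 2.84% higher. In delta compared with alpha cells, 1 member was higher (Avpr1a, background 5.33%) and 1 lower (Avpr1b, background 1.48%). In delta compared with beta cells, 2 members were higher (Avpr1a and Oxtr, background 11.7%) and 0 lower (background 2.99%). The comparisons share samples and are not independent of each other. All 6 called differences were also free of overlap between samples, always in the direction of the call. Among all genes tested, 3.05% were higher and 5.07% lower without overlap in beta against alpha cells, 4.97% and 1.67% in delta against alpha cells, and 12.3% and 2.62% in delta against beta cells. The plot of differences shows 6 intervals clear of 0 and 3 that include it.

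**Figure D2:**
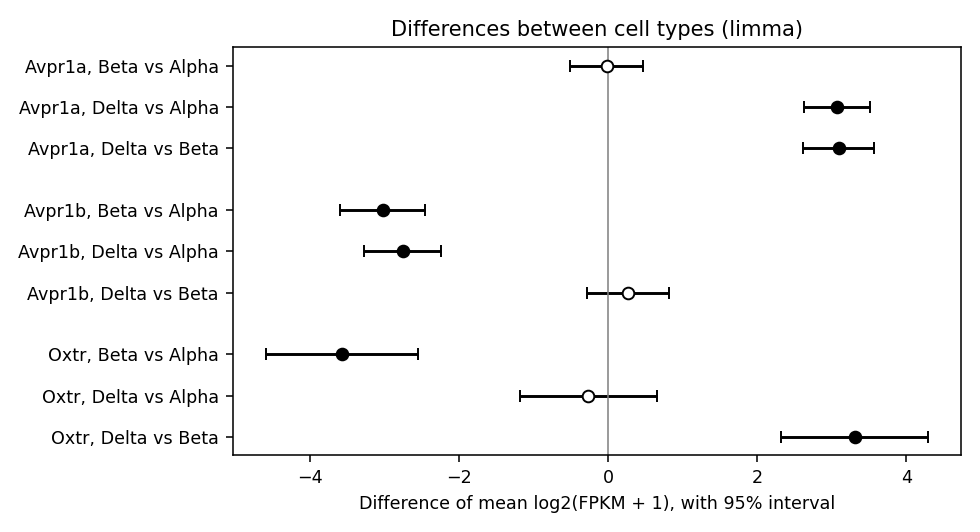
Difference of mean log2(FPKM + 1) between cell types (horizontal axis) for the 3 members tested, with 95% intervals from limma. Filled dots have an adjusted p under 0.05. The filled dots range from -3.57 (Oxtr, beta against alpha cells) to 3.31 (Oxtr, delta against beta cells).

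Avpr1a, the V1a receptor gene, was a delta cell transcript. The gene occupies 122448499 to 122453452 of chromosome 10 (GRCm38, plus strand), and its 1 transcript in the annotation spans 2 exons and 2670 nt. Delta samples 1 to 6 were at 7.43, 7.74, 7.67, 7.11, 10.3 and 5.71 FPKM. Alpha samples 1 to 5 were at 0, 0, 0.0439, 0.0232 and 0.0187 FPKM, and beta samples 1 to 4 at 0, 0, 0.00597 and 0.00927 FPKM. All delta cell samples were above all others, as was so for 4.97% of the genes tested against alpha cells and 12.3% against beta cells, and delta sample 5 was the highest. In the 4 delta libraries with an inferred depth, these levels correspond to about 191 to 577 reads. In alpha sample 2, 3 reads would amount to 0.161 FPKM.

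Delta cells exceeded alpha cells in Avpr1a by 3.07 ± 0.210 on the log2 scale (± SE; limma, adjusted p = 1.16e-07) and exceeded beta cells by 3.09 ± 0.224 (± SE; limma, adjusted p = 1.47e-07). The two-sided exact permutation tests gave p = 0.00433 and p = 0.00952, unadjusted and the smallest these group sizes allow, among 9 such tests of the members. Between beta and alpha cells, the log2 difference was -0.02 (95% interval -0.51 to 0.47, adjusted p = 0.996, limma). Among samples of higher ribosomal protein FPKM, Avpr1a averaged 7.58 FPKM in 2 delta and 0.0146 in 3 alpha samples and was at 0 in the 1 beta sample. Among samples of lower ribosomal protein FPKM, Avpr1a averaged 7.71 in 4 delta, 0.0210 in 2 alpha and 0.00508 in 3 beta samples. The summed FPKM of some markers of other cells was highest in delta cell samples, with overlapping ranges. The 8 endothelial markers summed to 3.24 to 6.17 FPKM in delta, 1.47 to 3.45 in alpha and 0.621 to 3.82 in beta cells, with 2 of them at 0 in all alpha and none at 0 in all delta samples. The 3 smooth muscle markers summed to 0.223 to 0.699 FPKM in delta, 0 to 0.309 in alpha and 0 to 0.137 in beta cells. Their part in the Avpr1a values was not tested. The coefficient of variation of Avpr1a over delta cell samples was 19.7%, and 59.3% of the genes tested had a lower mean in delta cells.

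Over the 15 samples, the tested genes whose log2(FPKM + 1) followed Avpr1a most closely were Fstl5 (Pearson r = 0.993), Ghsr (0.993), Nespas (0.993), Slc38a1 (0.992) and Hgf (0.989). Ghsr encodes the ghrelin receptor and Hgf encodes hepatocyte growth factor. Their means in delta cells were 27.9, 11.7, 41.6, 1.06 and 10.8 FPKM, and none was above 0.434 FPKM on average in alpha or beta cells. Such correlations over samples of 3 cell types describe a shared difference between cell types and rest on few libraries. Nespas is an antisense gene, and strand was not stated to be used in counting, so its reads cannot be told apart from those of the genes it overlaps.

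Avpr1b, the V1b receptor gene, was the alpha cell counterpart. The gene occupies 131599239 to 131612000 of chromosome 1 (plus strand) and has 2 annotated transcripts, the longer of 4023 nt in 2 exons. Alpha samples 1 to 5 were at 7.18, 9.36, 4.07, 8.22 and 8.87 FPKM. Beta samples 1 to 4 were at 0.0468, 0.0250, 0 and 0.00285 FPKM. Delta samples 1 to 6 were at 0.370, 0, 0.276, 0.492, 0.279 and 0.0153 FPKM. All alpha cell samples were above all others, as was so for 5.07% of the genes tested against beta cells and 1.67% against delta cells, and alpha sample 3 was the lowest of them. In alpha sample 2, the level corresponds to about 270 reads. The mean was 7.54 ± 2.10 FPKM (SD, n = 5) in alpha cells, and 61.4% of the genes tested had a lower mean there.

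Relative to alpha cells, Avpr1b differed by -3.02 ± 0.271 on the log2 scale in beta cells (± SE; limma, adjusted p = 2.77e-06) and by -2.76 ± 0.244 in delta cells (± SE; limma, adjusted p = 1.81e-06). The exact permutation tests (two-sided) gave p = 0.0159 and p = 0.00433, again the smallest possible. In the set of higher ribosomal protein FPKM, Avpr1b averaged 6.87 FPKM in 3 alpha and 0.185 in 2 delta samples and was at 0.0250 in the 1 beta sample. In the set of lower ribosomal protein FPKM it averaged 8.55 in 2 alpha, 0.0165 in 3 beta and 0.266 in 4 delta samples.

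The summed FPKM of the 9 markers of stellate cells, fibroblasts and pericytes was also highest in alpha cells, at 1.93 to 4.95, compared with 0.0972 to 0.908 in beta and 0.289 to 1.30 in delta cells. In alpha cells, 2 of the 9 had a mean above 1 FPKM, Rgs5 among them. Of these markers, 4 were at 0 in all alpha, 7 in all beta and 4 in all delta cell samples, with Col1a1 and Pdgfra at 0 in every sample. Rgs5 made up most of the sum in beta and delta cells. It was at 0.321 to 2.15 FPKM in alpha, 0.0972 to 0.908 in beta and 0.289 to 0.979 in delta cells and was not called. The part of these markers in the Avpr1b values was not tested.

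A low level of Avpr1b was present in most delta cell samples. It was above 0 in 5 of 6, and corresponds to about 15.3, 32.1 and 47.8 reads in delta samples 1, 3 and 4. The log2 difference between delta and beta cells was 0.27 (95% interval -0.29 to 0.82, adjusted p = 0.541, limma), and the exact permutation test gave p = 0.114 (two-sided). Relative to the alpha cell mean, Avpr1b was at 4.91%, 0%, 3.66%, 6.53%, 3.70% and 0.203% in delta samples 1 to 6. Gcg, the marker of alpha cells, was at 0.165%, 0.281%, 0.257%, 0.220%, 0.0866% and 0.122% of its alpha cell mean in the same samples. Avpr1b was the higher by this measure in delta samples 1, 3, 4, 5 and 6, and Gcg in delta sample 2. Delta sample 6 was at 0.0153 FPKM, less than the 0.0258 FPKM of 3 reads in delta sample 3, the deepest library of inferred depth. The depth of delta sample 6 itself is unknown. In delta sample 2, where 3 reads would amount to 0.0786 FPKM, it was listed at 0.

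**Figure D3:**
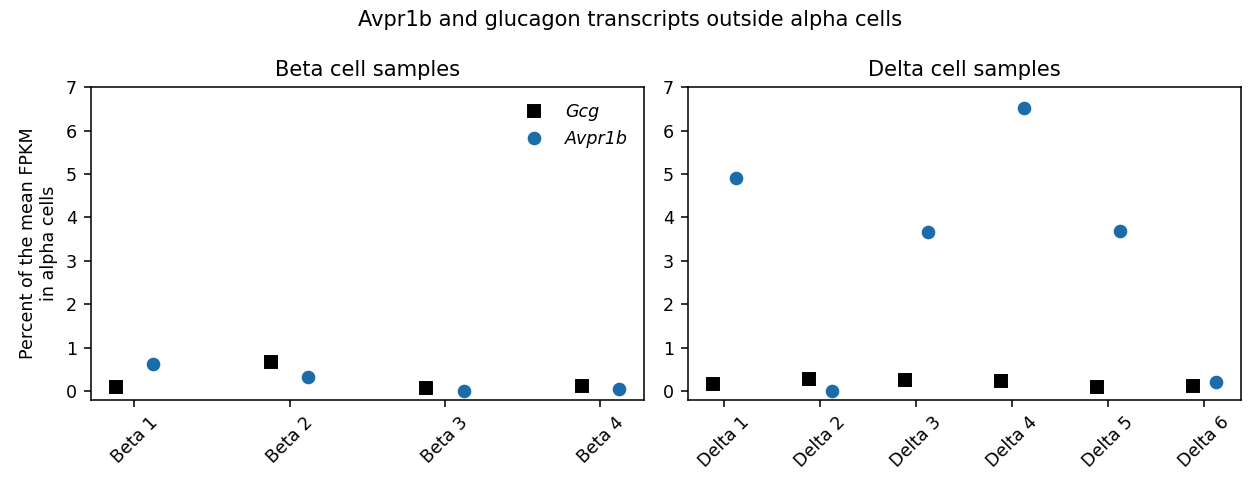
Level of Avpr1b (circles) and Gcg (squares) in each beta and delta cell sample as a percentage of the gene's mean FPKM in alpha cells (vertical axis). Avpr1b reaches 6.53% in delta cells, where Gcg stays at or below 0.281%, and the beta cell points of Avpr1b rest on levels of at most 0.0468 FPKM.

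The genes most like Avpr1b over the 15 samples were Galnt13 (r = 0.986), Sertm1 (0.985), Pdk4 (0.983) and Pou3f4 (0.982). Pou3f4 encodes a POU domain transcription factor, and Pdk4 encodes a kinase that inhibits pyruvate dehydrogenase. Their alpha cell means were 17.1, 9.81, 110.0 and 5.26 FPKM. In delta cells, none of these 4 genes had a mean above 0.305 FPKM.

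Oxtr, the oxytocin receptor gene, was the most abundant member and was shared by alpha and delta cells. The gene occupies 112473683 to 112489943 of chromosome 6 (minus strand) and has 2 annotated transcripts, the longer of 4704 nt in 2 exons. Alpha samples 1 to 5 were at 13.8, 30.6, 4.13, 23.0 and 32.9 FPKM. Delta samples 1 to 6 were at 16.3, 9.25, 17.4, 19.2, 18.4 and 8.17 FPKM. Beta samples 1 to 4 were at 0.593, 0.538, 0.710 and 0.282 FPKM, all below every alpha and delta cell sample. The alpha cell samples spanned 7.96-fold, with sample 3 lowest and sample 5 highest, and the delta cell samples, which spanned 2.35-fold, fell inside their range. Mean Oxtr was 20.9 ± 11.97 FPKM for alpha (SD, n = 5), 14.8 ± 4.82 for delta (SD, n = 6) and 0.531 ± 0.181 for beta cells (SD, n = 4).

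Oxtr in beta cells differed from alpha cells by -3.57 ± 0.483 on the log2 scale (± SE; limma, adjusted p = 0.000163), and delta cells exceeded beta cells by 3.31 ± 0.464 (± SE; limma, adjusted p = 0.000160). The exact permutation tests gave p = 0.0159 and p = 0.00952 (two-sided), the smallest possible. The beta cell mean was 2.54% of the alpha cell mean, with single samples between 1.35% and 3.41%. No difference between delta and alpha cells was called (log2 difference -0.26, 95% interval -1.19 to 0.66, adjusted p = 0.836, limma; exact permutation test, p = 0.636, two-sided), an interval that still allows more than a 2-fold lower level in delta cells. The log2 difference was -0.72 without alpha sample 3 and -0.04 without alpha sample 5, and over all samples left out in turn the adjusted p of this comparison stayed between 0.320 and 0.989 (limma).

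The order also held within the ribosomal protein sets, where Oxtr averaged 16.2 FPKM in 3 alpha and 12.8 in 2 delta samples against 0.538 in 1 beta sample of the higher set, and 27.9 in 2 alpha and 15.8 in 4 delta samples against 0.528 in 3 beta samples of the lower set. Sst in alpha cell samples was at most at 1.49% of its delta cell mean and Gcg in delta cell samples at most at 0.281% of its alpha cell mean, while Oxtr was at 27.9% or more of its delta cell mean in every alpha cell sample and at 39.2% or more of its alpha cell mean in every delta cell sample. Ppy, which marks pancreatic polypeptide cells, was likewise high in alpha and delta cells and low in beta cells, at 17728 to 41392 FPKM in alpha, 10857 to 48600 in delta and 16.9 to 98.1 in beta cells. The summed FPKM of the 7 ductal cell markers was also lowest in beta cells without overlap, though Cftr was at 0 in all alpha and beta samples and Krt19 in all delta samples. It was 40.5 to 184 in alpha, 37.9 to 108 in delta and 14.3 to 33.2 in beta cells. The part of either in the Oxtr values was not tested.

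The genes most like Oxtr were Gpx3 (r = 0.953 over the 15 samples), Adora2a (0.946), Tubb4a (0.945), Gfra1 (0.944) and Gm2a (0.940). Gpx3 encodes an extracellular glutathione peroxidase, Adora2a encodes an adenosine receptor and Gfra1 encodes the co-receptor for GDNF. Mean FPKM in alpha, beta and delta cells was 714, 7.75 and 762 for Gpx3 and 7.93, 0.0678 and 12.4 for Gfra1. Avpr1b correlated with Oxtr at r = 0.575 and Avpr1a at r = 0.402.

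In the alpha cell samples Oxtr was found together with Avpr1b, and in the delta cell samples with Avpr1a; whether single cells held both was not measured. In alpha cells, Oxtr held 50.1% to 78.7% of the summed FPKM of the 4 genes (median 73.6%) and Avpr1b held 21.2% to 49.4%. In delta cells, Oxtr held 54.4% to 71.7% (median 65.5%) and Avpr1a held 26.5% to 45.6%. Oxtr was above Avpr1b in 5 of 5 alpha cell samples, though in sample 3 the ratio of Avpr1b to Oxtr was 0.986 (exact sign-flip permutation test of log2(FPKM + 1), p = 0.0625, two-sided, the smallest that 5 samples allow). Oxtr was above Avpr1a in 6 of 6 delta cell samples (exact sign-flip permutation test of log2(FPKM + 1), p = 0.0312, two-sided and unadjusted among 18 tests, the smallest that 6 samples allow). In beta cells, where all members were below 1 FPKM, Oxtr held 92.7% to 99.2%.

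**Figure D4:**
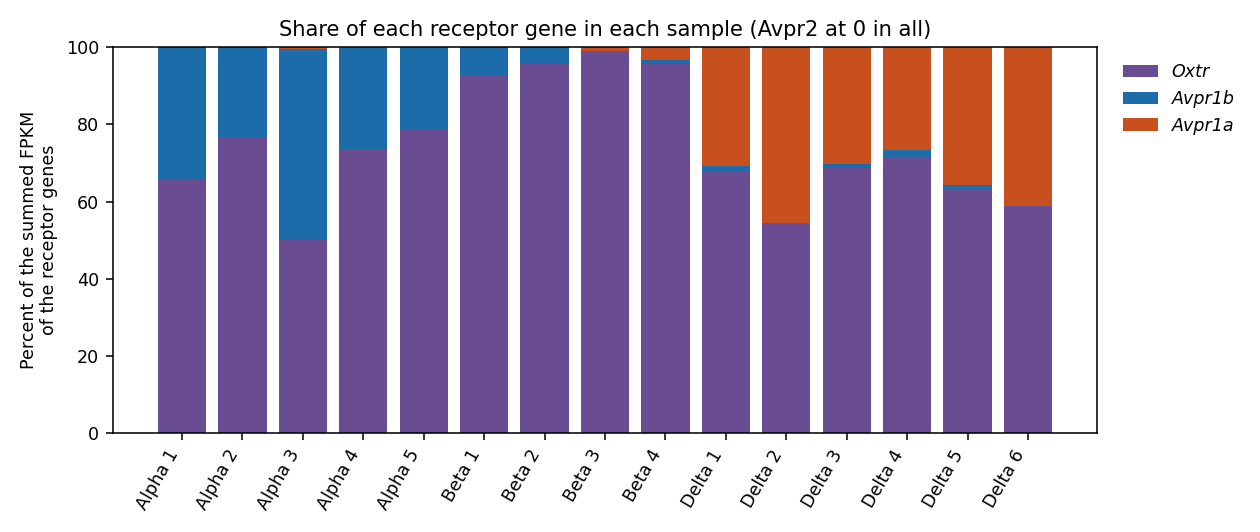
Percentage of the summed FPKM of the receptor genes (vertical axis) held by Oxtr, Avpr1b and Avpr1a in each of the 15 samples. Avpr1b fills the part beside Oxtr in alpha cells and Avpr1a does so in delta cells, while the beta cell bars rest on sums below 1 FPKM.

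Avpr2, the V2 receptor gene, was listed at 0 in all 15 samples and did not pass the filter. The gene occupies 73892102 to 73895502 of the X chromosome (plus strand). A level of 3 reads on its 1812 nt transcript would amount to 0.0611 FPKM in delta sample 3 and to 0.247 FPKM in alpha sample 2, by counting error only. Arhgap4, which runs on the minus strand, shares 2347 of the 2886 exonic bases of Avpr2 (81.3%). Because strand was not stated to be used, reads over the shared bases cannot be told apart, while the remaining bases are not shared with it. Arhgap4 was at 0 to 0.632 FPKM in alpha, 0 to 0.290 in beta and 0 to 1.41 in delta cells. L1cam also spans Avpr2 and shares none of its exonic bases. Avpr1a lies within the span of the antisense gene Gm48877 and shares no exonic base with it. The genes of both ligands, Avp and Oxt, were listed at 0 in all 15 samples, as was Aqp2, the water channel gene controlled by the V2 receptor in kidney.

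The signalling genes were given by a list of 64 genes. Most act downstream of the receptors, but the list also held 4 genes of ligands and peptide cleavage, Avp, Oxt, Lnpep and Cd38. Among these 4, Lnpep alone passed the filter. Of the 64, 49 passed the filter and 14 were called in at least 1 comparison. In beta against alpha cells, 4 were higher and 4 lower, with a median log2 difference of 0.05, compared with -0.13 over all genes tested. In delta against alpha cells 3 were higher and 1 lower (median 0.45, all genes 0.13), and in delta against beta cells 6 were higher and 2 lower (median 0.21, all genes 0.30). Out of 49, these are 8, 4 and 8 genes, beside 7.66%, 6.81% and 14.7% of all genes called in either direction.

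For the first steps after the receptor, 2 of 4 genes of Gq/11 alpha subunits and 3 of 4 of phospholipase C beta passed the filter. Gnaq, which encodes the Gq alpha subunit, was at 18.5 ± 7.25 FPKM in alpha (SD, n = 5), 21.4 ± 15.5 in beta (SD, n = 4) and 24.2 ± 6.20 in delta cells (SD, n = 6). Gna11 was at 13.2, 10.96 and 19.9 FPKM on average, and Gna14 and Gna15 were below the filter, with Gna15 at 0 in all alpha and beta samples. Plcb2 was at 0 in all 15 samples. None of the 2 tested Gq/11 genes and none of the 3 tested phospholipase C beta genes (Plcb1, Plcb3 and Plcb4) was called in any comparison. Plcb4 was the most abundant of the latter, at 17.9, 35.2 and 32.3 FPKM in alpha, beta and delta cells. Of the 3 IP3 receptor genes, Itpr3 was the called one, with 4.12 FPKM in delta against 1.06 in alpha cells (log2 difference 1.30, adjusted p = 0.0357, limma). This call was lost in 7 of 15 fits that each left out a sample (alpha 1, 2 or 3, or delta 3, 4, 5 or 6; adjusted p up to 0.1001) and in 5 of 10 other settings, the replicate block and both other scalings among them (adjusted p up to 0.0828).

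Further along the pathway, single genes were called. Prkca and Prkcb encode classical protein kinase C isoforms, and their log2 levels in beta cells exceeded those in alpha cells by 1.74 and 2.55 (adjusted p = 0.00644 and 0.0184, limma). The call of Prkcb was lost without alpha 2 or beta 4 (adjusted p up to 0.0724), and with no filter or only these cell types in the fit (adjusted p up to 0.0937). Delta cells were below beta cells in Prkca (-1.61, adjusted p = 0.00463, limma). Rgs4, which encodes a GTPase-activating protein for Gq and Gi, was at 64.3 FPKM in alpha, 4.92 in beta and 30.5 in delta cells. Its beta cell level was below that of alpha cells (-3.67, adjusted p = 0.000475, limma) and of delta cells (2.69 for delta against beta, adjusted p = 0.00273, limma). Gnas, which encodes the Gs alpha subunit and whose locus also holds Nespas, was at 1310, 228 and 1142 FPKM, with differences of -2.52 for beta against alpha (adjusted p = 0.000589, limma) and, between delta and beta cells, 2.38 (adjusted p = 0.000444, limma). Gnai1, which encodes an inhibitory alpha subunit, was at 46.0 FPKM in alpha, 9.44 in beta and 5.30 in delta cells, and was lower in both than in alpha cells (-2.61 and -2.86, adjusted p = 0.00603 and 0.000982, limma), the former lost when the fit held only beta and alpha cells (adjusted p = 0.0665, limma). Gnal, which encodes a Gs-like alpha subunit, was above alpha cells in delta cells (1.13, adjusted p = 0.0127, limma). Among the kinases and arrestins that silence receptors, Grk5 was lower in delta than in beta cells (1.12 against 7.70 FPKM, -1.87, adjusted p = 0.00586, limma) and the other 6 were not called.

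Among 8 tested diacylglycerol kinase genes, Dgkz had a mean of 14.9 FPKM in delta, 5.39 in alpha and 2.65 in beta cells. Its difference between delta and beta cells was called in every fit run (2.24, adjusted p = 0.00369, limma). That between delta and alpha cells (1.54, adjusted p = 0.0414, limma) was lost in 10 of 15 fits without a sample (alpha 1, 2 or 3, beta 3 or 4, or any delta sample but 2; adjusted p up to 0.123) and in 5 of 11 other settings, replicate block and other scalings included (adjusted p up to 0.151). Dgkq in beta cells was below alpha cells (-1.68, adjusted p = 0.0070, limma) and below delta cells (1.16 for delta against beta, adjusted p = 0.0292, limma). The former was lost when the fit held only these cell types (adjusted p = 0.0506, limma). The latter was lost without beta 3 or 4 or without delta 1, 3 or 5 (adjusted p up to 0.0817), and with no filter, a filter at 5 FPKM or quantile normalization (adjusted p up to 0.126). Dgkb in delta cells was above beta cells (1.38, adjusted p = 0.0105, limma) and Dgkg in beta cells was above alpha cells (1.06, adjusted p = 0.0338, limma). The call of Dgkg was lost without alpha 1, alpha 2 or beta 4 (adjusted p up to 0.0617), and that of Dgkb with the replicate block (adjusted p = 0.0526, limma). These kinases remove diacylglycerol, the activator of protein kinase C. Of the genes listed for the V2 pathway, Adcy6 in delta cells was above beta cells (1.65, adjusted p = 0.0116, limma). The difference of Prkar2b between beta and alpha cells (1.82, adjusted p = 0.0357, limma) was lost in 9 of 15 fits without a sample (any alpha but 1, any beta but 3, or delta 4 or 5; adjusted p up to 0.112), and with no filter, only these cell types in the fit or the replicate block (adjusted p up to 0.141). Lnpep, which encodes the aminopeptidase that cleaves oxytocin and vasopressin, was at 17.9, 41.7 and 19.0 FPKM in alpha, beta and delta cells and was not called.

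Of 37 other genes of Gq-coupled peptide receptors in the table, 4 passed the filter of 1 FPKM, which 14405 of all 38283 genes passed. Ghsr was higher in delta than in alpha and beta cells (11.7 FPKM in delta, 3.43 and 3.60 on the log2 scale, adjusted p = 1.80e-07 and 1.48e-07, limma). F2rl1, a protease-activated receptor gene, was at 0.658 FPKM in alpha, 3.94 in beta and 5.11 in delta cells and was higher in beta and in delta than in alpha cells (1.54 and 1.79, adjusted p = 0.0205 and 0.00289, limma). Ednra, an endothelin receptor gene, had a distribution like that of Oxtr, at 2.68 FPKM in alpha, 0.252 in beta and 3.83 in delta cells. The differences were -1.36 for beta against alpha (adjusted p = 0.0449, limma) and, between delta and beta cells, 1.90 (adjusted p = 0.00275, limma). Galr2 was not called. In beta against alpha cells, the call of F2rl1 was lost without beta sample 4 (adjusted p = 0.0666, limma). That of Ednra was lost in 10 of 15 fits without a sample (any beta, alpha 1, 2 or 5, or delta 1, 4 or 5; adjusted p up to 0.115), and with no filter, only these cell types in the fit or the replicate block (adjusted p up to 0.126).

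**Figure D5:**
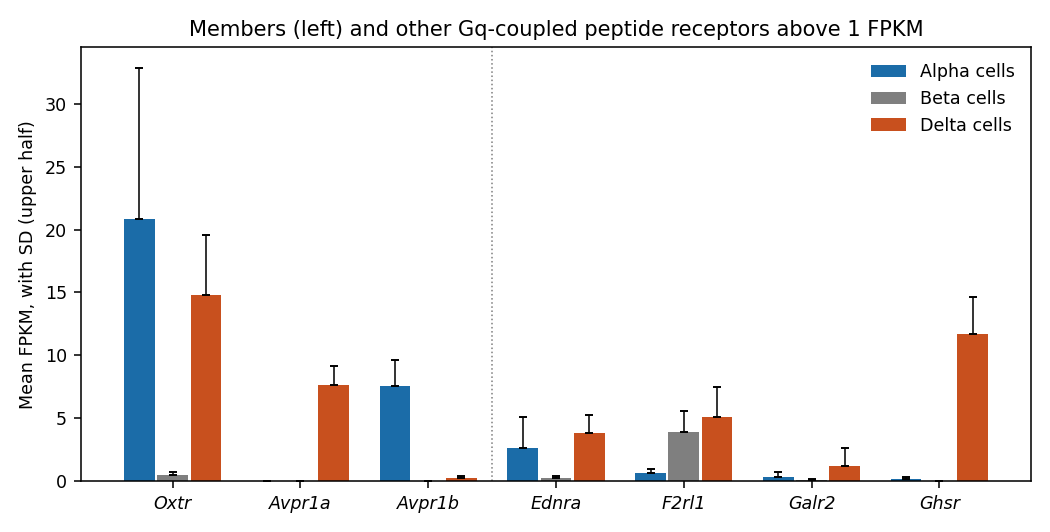
Mean FPKM (vertical axis, with SD upward) in alpha, beta and delta cells of the 3 expressed members, left of the dotted line, and of the 4 other Gq-coupled peptide receptor genes above 1 FPKM in a cell type. Oxtr has the highest mean, 20.9 FPKM in alpha cells, and Ghsr is the highest of the other genes, at 11.7 FPKM in delta cells.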

How the data were processed

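The deposited table holds FPKM for 38283 genes in 15 samples. FPKM were made by the authors with Cufflinks 2.2.1 from TopHat alignments to GRCm38 (TopHat2 2.0.8 in the submitters' processing notes). The annotation release is not given in the sources used here. No scaling between libraries is stated. The authors ran edgeR on counts that were not used here. Instead, limma 3.58.1 (R 4.3.3, trended variances) was fitted to log2(FPKM + 1) of all samples with 1 mean per cell type, which was tested on simulated data. Exact tests used SciPy 1.17.1. Gene models are GENCODE M21, and coding sequences were aligned with MAFFT 7.526. Depth was sought as a common step in low values of 5024 genes with 1 transcript, of which 200 nt were subtracted. Genes named are the members, their ligands and overlapping genes, the 5 most correlated genes per member, and called genes of listed pathways. A gene among the most correlated ones is not reported here. Other uncalled genes of the lists and single cell type markers were named after their values were seen. Members and lists were chosen with earlier results of these data known. The limit of 50000 FPKM that split samples by ribosomal protein genes was also set that way.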

Additional observations from a re-analysis of the deposited data

How the results depend on the processing

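Calls of Avpr1a, Avpr1b and Oxtr held under each alternative run: other filters, pseudocounts and scalings, fits of only the cell types compared, no variance trend, the sample set as covariate, and each sample left out. Same-numbered samples correlated between -0.152 and 0.281 in their deviations from group means, with 5 of 13 pairs above 0.1. Without differently numbered pairs beside them, these correlations cannot decide on pairing. Alpha and beta cells came from the same mouse line and may share pools, which the labels do not say. The numbers were not taken to pair samples in the main fit. The replicate block turned the uncalled Avpr1a difference between beta and alpha cells to 0.023 (adjusted p = 0.964, limma), changed no other direction of a member and called 1227, 831 and 2001 genes for beta against alpha, delta against alpha and delta against beta cells, compared with 1104, 981 and 2114. As log2 ratios of mean FPKM, which do not compress low values, the differences in this order were -2.17, 8.80 and 10.97 for Avpr1a, -8.66, -4.98 and 3.68 for Avpr1b, and -5.30 and 4.80 for Oxtr in the comparisons with beta cells. Those of Avpr1a, and of Avpr1b against beta cells, rest on a group mean made of levels of at most 0.0468 FPKM, and are not estimates of size. In alpha sample 2, 3 reads would amount to 0.104 FPKM (Avpr1b) or 0.161 FPKM (Avpr1a), and in delta sample 3 to 0.0258 or 0.0399 FPKM. The floor in beta cell libraries is unknown. Genes called in beta against alpha cells numbered 2072 with median-ratio size factors, 2056 with quantile normalization, 520 with only these cell types in the fit, and 698 (without beta sample 4) to 1743 (without beta sample 2) with samples left out. A filter at 5 FPKM gave 518 in delta against alpha and 1319 in delta against beta cells. Size factors moved the share of calls that were higher from 37.0%, 78.3% and 79.6% to 52.7%, 67.9% and 51.5%, and quantile normalization to 48.1%, 61.4% and 53.1%. Counts of signalling genes called ranged from 4 to 10, 2 to 6 and 7 to 13. Of 26 calls of pathway and other Gq-coupled receptor genes, 15 held in every fit run and 11 were lost in at least 1, namely Gnai1, Prkcb, Dgkg, Dgkq, Prkar2b, Ednra and F2rl1 in beta against alpha, Itpr3 and Dgkz in delta against alpha, and Dgkb and Dgkq in delta against beta cells. Depth was inferred in 5 libraries only, none of them of beta cells, so values of 0 in beta cells have no floor.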

Other observations

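Of the other 33 Gq-coupled peptide receptor genes that did not pass the filter, 16 were listed at 0 in all 15 samples and 17 were above 0 in at least 1. Those with the highest delta cell means, chosen after their values were seen, were F2r, Kiss1r and Mchr1. F2r, the thrombin receptor gene, was at 0.405 to 1.82 FPKM in delta cells, at 0 in all alpha cell samples and at most at 0.592 in beta cells. Kiss1r, the kisspeptin receptor gene, was at 0.423 to 0.703 FPKM in delta cells, at most at 0.194 in alpha cells and at most at 1.20 in beta cells. Mchr1, a receptor gene for melanin-concentrating hormone, was above 0 in 5 of 6 delta cell samples, up to 0.985 FPKM, and at 0 in every sample of the other cell types. Genes above 0 numbered 16342 to 18559 in delta, 14761 to 17122 in alpha and 15286 to 17752 in beta cell samples, and the part of detection in these values was not tested.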
